A study of Mus musculus with 12 samples.

Results

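The transcripts of 7 genes that encode fibronectin and matricellular proteins (Fn1, Thbs1, Mgp, Dcn, Bgn, Sparc and Tnc) were followed through mouse mammary cancer tumourspheres, which are clusters that grow from single cells in plates to which they cannot attach. The genes were taken by symbol, all 7 were found among the 18278 genes of the count tables, and all 7 passed the filter on low counts that left 18176 genes for testing. LM1 and LM9 are cell lines established from lung metastases in NOD/SCID mice. They descend from HR1, a mammary tumour line of a mouse that expressed PIK3CA H1047R from the CAG promoter, after piggyBac transposon mutagenesis. As labelled, all 4 groups therefore share this oncogene, the transposon system and the same ancestor. LM1KO and LM9KO (Nfib KO in the labels) are pools of expanded clones after CRISPR-Cas9 targeting of Nfib, which encodes a transcription factor of the nuclear factor I family, so each is a small set of clones and not the whole parental population. Each group had 3 libraries. Cultures were started at a density of 10000 cells per mL and kept for 6 days with EGF and basic FGF at 20 ng per mL each, and nothing in the labels says whether the 3 libraries of a group came from separate cultures, so p-values measure the spread between libraries, which may be technical.

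Fibronectin is a large secreted glycoprotein that cells assemble into fibrils through integrins, and it gives other matrix proteins a scaffold. Matricellular proteins are secreted into the matrix but act mainly on how cells attach, migrate and read growth factors, and not as structural parts. Thrombospondin 1 (Thbs1), SPARC and tenascin C (Tnc) are the classical examples, and tenascin C and fibronectin are typical of the matrix around carcinomas and healing wounds. Decorin (Dcn) and biglycan (Bgn) are small leucine-rich proteoglycans that bind collagen and growth factors, and matrix Gla protein (Mgp) is a vitamin K-dependent inhibitor of calcification. In normal tissue much of decorin, biglycan and SPARC is made by stromal fibroblasts.

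Library totals ran from 29249075 to 37162594 counts, and 3 counts corresponded to 0.0807 to 0.103 counts-per-million (CPM) of the library total. CPM values below are scaled by TMM factors, which correct for composition between libraries. Nfib, the targeted gene, did not check the labels. Its level was 218 ± 22.6 CPM in LM1 and 235 ± 5.67 in the LM1KO-labelled libraries (mean ± SD, n = 3; limma-voom adjusted p = 0.533), and it was 154 ± 48.8 CPM in LM9 and 240.0 ± 11.2 in the LM9KO-labelled libraries (adjusted p = 0.00260), while a count over all exons does not show whether an allele carries a frameshift. Without LM9 replicate 1, at 210 CPM, the log2 fold change of Nfib in LM9 went from 0.68 to 0.93 (adjusted p = 1.14e-09). One library stood apart from its group: LM9 replicate 1 had a correlation of log2 values across genes of 0.998 with each LM1 library and of 0.972 and 0.974 with the other LM9 libraries. Whether it is an LM1 library under an LM9 label cannot be told from these files, so results on the 7 genes in LM9 are given with and without it. For the other genes, LM9 levels are means of all 3 libraries, and the values of replicates 2 and 3 are added where leaving out replicate 1 moves the mean by more than 1.5 times. Libraries labelled LM1KO and LM9KO correlated at 0.998 to 0.999 with each other across the lines, as they did within a line. Whether they are what their labels say was not tested, and values for the LM9 and knockout groups describe the libraries as labelled. The labels call all samples a breast cancer cell line, but the epithelial markers Cdh1 and Cldn3 stood at 3 counts or fewer in each of the 6 libraries labelled knockout.

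RefSeq promoter sequences (GRCm38.p6) were at hand for 3 of the 7 genes, Tnc, Bgn and Sparc, which are also the 3 that were higher in the libraries labelled knockout. The 250 bases before the RefSeq transcript start are shown for each, 5′ to 3′ on the strand of the gene, with the matches of the motifs searched below in capitals.
Tnc, chr4:64047016-64047265, minus strand: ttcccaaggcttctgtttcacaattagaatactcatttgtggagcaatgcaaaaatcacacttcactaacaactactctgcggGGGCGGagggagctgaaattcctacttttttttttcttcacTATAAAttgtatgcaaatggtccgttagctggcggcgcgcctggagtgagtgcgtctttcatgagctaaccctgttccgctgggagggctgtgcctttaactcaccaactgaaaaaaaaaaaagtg
Bgn, chrX:73483351-73483600, plus strand: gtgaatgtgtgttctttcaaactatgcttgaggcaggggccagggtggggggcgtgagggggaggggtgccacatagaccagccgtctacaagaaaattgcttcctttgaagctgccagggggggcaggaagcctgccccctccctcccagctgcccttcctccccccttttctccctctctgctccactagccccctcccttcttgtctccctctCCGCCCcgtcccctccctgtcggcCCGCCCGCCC
Sparc, chr11:55420081-55420330, minus strand: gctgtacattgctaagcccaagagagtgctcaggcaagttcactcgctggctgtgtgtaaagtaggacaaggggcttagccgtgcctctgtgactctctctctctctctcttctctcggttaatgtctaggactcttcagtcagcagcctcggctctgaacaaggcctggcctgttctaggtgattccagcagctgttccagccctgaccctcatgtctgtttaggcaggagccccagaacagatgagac
The windows differed in base composition, with a GC content of 44.8% for Tnc, 54% for Sparc and 64.4% for Bgn against a median of 52.4% over all 32851 promoters of this length. The full palindromic NFI site was in none of the 3 windows, and 0.0365% of all promoters held it. TTGGC, the single arm of that site, held by 41.5% of promoters, was also absent from the 3 windows, although it stood 18 bases before a second RefSeq start of Tnc at position 64046936, in a window that overlaps the first. A TATAAA element, held by 12.4% of promoters, began 126 bases before the Tnc start, and a GC box, GGGCGG, began at 167 bases before it. Bgn had 3 GC boxes, at 34, 10 and 6 bases before its start, of which the last 2 overlap, and 32.7% of promoters held at least 1. The AP-1 element TGANTCA (6.75% of promoters) and the core ACGTG of a HIF site (16.6%) matched in none of the 3. Both strands were searched, and a match or its absence describes only these letters in these windows. The Sparc window lies inside the span that GENCODE gives the gene, which extends upstream of this RefSeq start.

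The 7 genes did not move one way between the parental libraries and those labelled knockout. These are bulk libraries, in which fewer cells of a type and less RNA per cell cannot be told apart. In the LM1 line, Fn1, Thbs1, Mgp and Dcn were lower and Sparc, Tnc and Bgn were higher in the LM1KO-labelled libraries, so 7 of 7 genes passed the test at an adjusted p under 0.05, 4 lower and 3 higher. That share has to be read against 81.2% of all 18176 genes tested in this comparison, 43.1% higher and 38.1% lower. In the LM9 line 6 of 7 passed, 3 lower and 3 higher, against 82.3% of all genes tested (44.3% higher and 38.0% lower), and Dcn was the exception. Leaving out LM9 replicate 1, all 7 passed in LM9 too, 4 lower and 3 higher, against 88.9% of genes (47.7% higher and 41.2% lower). The median log2 fold change of the 7 genes was -2.98 in LM1 and -1.18 in LM9, and over all genes tested it was 0.08 and 0.13. With 7 genes of both signs, the median is the value of Dcn, and without LM9 replicate 1 it was -0.32 in LM9, against 0.16 over all genes. No group of 3 parental libraries overlapped its knockout-labelled group for any of the 7 genes, which was also true of 89.1% of genes in LM1 (46.8% higher and 42.3% lower) and 80.5% in LM9 (43.4% higher and 37.1% lower). An exact two-sided permutation test of the log2 values gave p = 0.1 for every gene in both lines, the smallest value that 3 libraries against 3 can give.

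**Figure D1:**
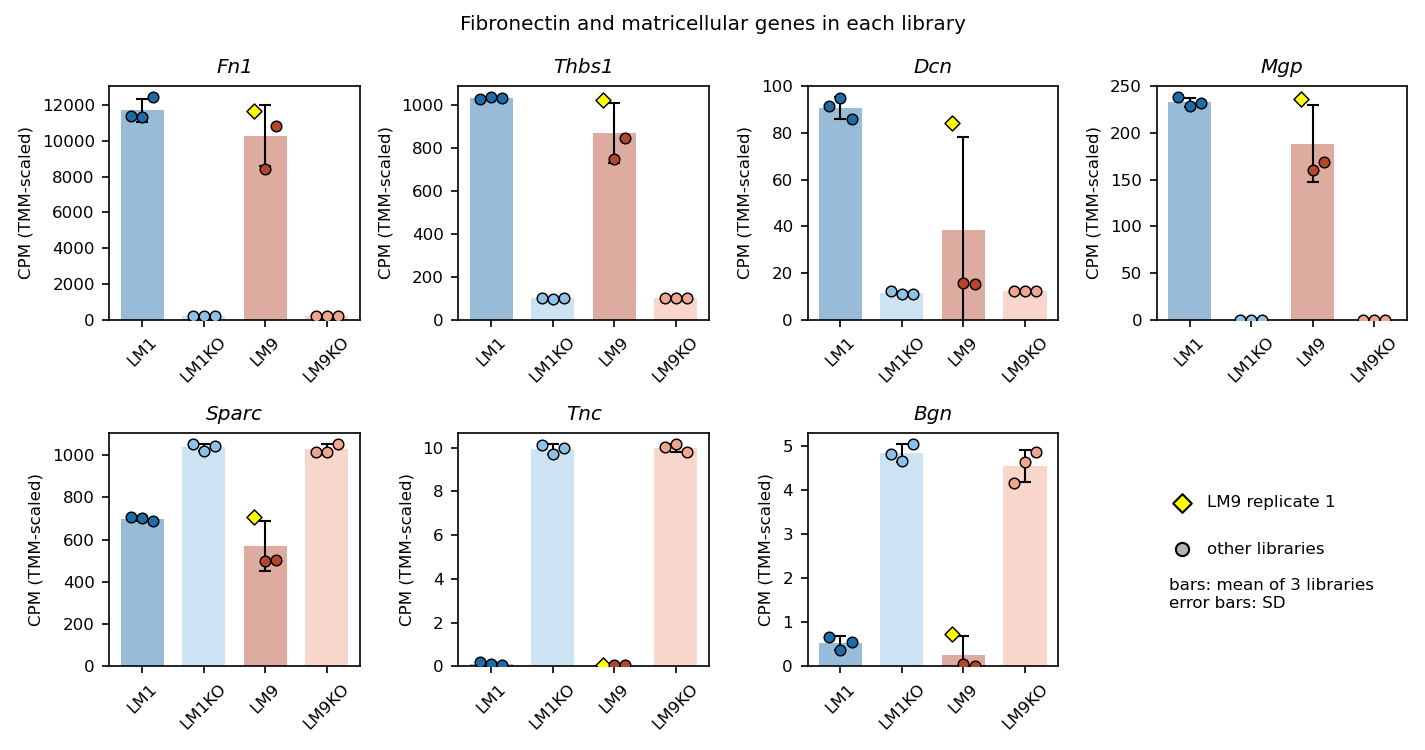
TMM-scaled CPM of the 7 genes in each of the 12 libraries, with bars for the mean of 3 libraries and error bars for the SD; each panel has its own linear axis from 0. Fn1, Thbs1, Dcn and Mgp stand higher in the parental libraries, Sparc, Tnc and Bgn in those labelled knockout, and LM9 replicate 1 (diamond) lies at the LM1 level of Dcn, at 84.4 CPM, while the other LM9 libraries lie at 15.1 and 15.7 CPM.

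Fibronectin showed the largest difference in CPM among the 7. Fn1 (ENSMUSG00000026193, chr1:71585520-71653200 on the minus strand, mm10) stood at 11367, 11315 and 12435 CPM in LM1 and at 197, 192 and 197 CPM in the LM1KO-labelled libraries. In LM9 it was 11634, 8408 and 10827 CPM in replicates 1 to 3, and in the LM9KO-labelled libraries 197, 186 and 194 CPM. All parental libraries were far above all libraries labelled knockout, and the lowest parental value was LM9 replicate 2. Fn1 had the highest count of any gene in the 3 LM1 libraries and in LM9 replicate 1, where it took 1.08% to 1.18% of all counts, and its rank was 3 and 4 in the other LM9 libraries. In the libraries labelled knockout it ranked between 883 and 960. The log2 fold change was -5.91 in LM1 (SE 0.10, limma-voom adjusted p = 3.51e-12), a 59.9-fold lower level, and -5.73 in LM9 (SE 0.10, adjusted p = 4.64e-12), a 53.0-fold lower level. Leaving out LM9 replicate 1 gave -5.63 in LM9. The exons of Fn1 share 292 bases with Apol7d on the other strand, and whether the counting used strand was not given in the sources used here.

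Thrombospondin 1 fell by a smaller factor. Thbs1 (ENSMUSG00000040152, chr2:118111876-118127133, plus strand) encodes a secreted glycoprotein that binds CD47 and integrins, can activate latent TGF-beta and restrains vessel growth. Its level was 1028, 1035 and 1032 CPM in LM1 and 102, 98.5 and 103 CPM in the LM1KO-labelled libraries. It was 1019.8, 746 and 843 CPM in LM9, with replicate 1 at the LM1 level and the other replicates below it, and 101, 103 and 103 CPM in the LM9KO-labelled libraries. The log2 fold change was -3.35 in LM1 (SE 0.09, adjusted p = 4.75e-11) and -3.07 in LM9 (SE 0.09, adjusted p = 9.06e-11), and without LM9 replicate 1 it was -2.95 in LM9.

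Matrix Gla protein went from an abundant transcript to the limit of detection. Mgp (ENSMUSG00000030218, chr6:136872435-136875823, minus strand) was at 238, 229 and 232 CPM in LM1 and at 236, 160 and 169 CPM in LM9. In the 6 libraries labelled knockout a single count was found, in LM1KO replicate 1, and the others were at 0. The counts summed to 20583 in LM1 and 1 in LM1KO, a ratio of 26943 after scaling (exact 95% counting interval 4835 to 1.06e+06), and LM9, with 15260 counts, was at least 7524-fold higher than a floor of 3 counts over the LM9KO group. These intervals and floors describe counting error alone, because no molecular identifiers mark which reads are copies of 1 molecule. The limma-voom adjusted p was 1.70e-09 in LM1 and 1.50e-09 in LM9, and the gene passed in LM9 without replicate 1 as well (adjusted p = 1.43e-14).

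Decorin was lower in the libraries labelled knockout, but with all libraries it missed the threshold in LM9. Dcn (ENSMUSG00000019929, chr10:97479609-97518143, plus strand) was at 91.5, 94.8 and 85.8 CPM in LM1 and at 12.1, 11.2 and 11.2 CPM in the LM1KO-labelled libraries, a log2 fold change of -2.98 (SE 0.50, adjusted p = 0.000162) or 7.89-fold. In LM9 replicate 1 it was 84.4 CPM, which is 0.10 from the LM1 mean on the log2(CPM + 0.1) scale, but in LM9 replicates 2 and 3 it was 15.7 and 15.1 CPM. The LM9KO-labelled libraries were at 12.3, 12.3 and 12.5 CPM, below all LM9 libraries. With all libraries the log2 fold change in LM9 was -1.18 (SE 0.53, 95% interval -2.34 to -0.01) and missed the threshold (adjusted p = 0.0576). A fit that left out LM9 replicate 1 gave -0.32 (SE 0.08, adjusted p = 0.00114), a 1.24-fold lower level that passed. The size of the decorin difference in LM9 thus rested on that library, and 7 of the alternatives tried took its LM9 result past the threshold.

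SPARC, a collagen-binding glycoprotein that modulates attachment, was the most abundant of the higher genes and had the smallest fold change of the 7 in LM1. Sparc (ENSMUSG00000018593, chr11:55394500-55423183, minus strand) was at 707, 704 and 687 CPM in LM1 and 1050.2, 1019.5 and 1041 CPM in the LM1KO-labelled libraries. It was at 708, 496 and 504 CPM in LM9 and 1015, 1014 and 1054 CPM in the LM9KO-labelled libraries. LM9 replicate 1 was again at the LM1 level, and the other LM9 libraries were lower. The rise was 0.57 on the log2 scale in LM1 (SE 0.11, adjusted p = 0.000531), or 1.48-fold, and 0.87 in LM9 (SE 0.11, adjusted p = 1.68e-05), or 1.83-fold. Leaving out LM9 replicate 1 gave 1.04 in LM9. Total counts without scaling factors, which shift the median of all genes to 0.31 in LM1 and 0.49 in LM9, gave 0.79 and 1.22 for Sparc.

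Tenascin C was at or near the floor in every parental library. Tnc (ENSMUSG00000028364, chr4:63959785-64047015, minus strand), whose promoter is shown above, encodes a large glycoprotein that interferes with attachment to fibronectin. It had 5, 3 and 1 counts in LM1 and 2, 1 and 2 counts in LM9. The libraries labelled knockout held 10.1, 9.69 and 9.99 CPM in LM1KO and 10.0, 10.2 and 9.80 CPM in LM9KO. Summed counts were 1152 in LM1KO against 9 in LM1, a ratio of 97.8 after scaling (95% counting interval 51.3 to 214), and 1182 in LM9KO against 5 in LM9, a ratio of 160 (68.3 to 493). The log2 fold changes of 6.57 (SE 0.31, adjusted p = 3.18e-09) and 6.97 (SE 0.33, adjusted p = 3.60e-09) passed in both lines. Replicate 1 of LM9 made little difference here, and the LM9 value without it was 7.02.

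Biglycan, the closest relative of decorin among the 7, moved the other way from it. Bgn (ENSMUSG00000031375, chrX:73483602-73495933, plus strand) had 19, 12 and 15 counts in LM1, or 0.674, 0.368 and 0.542 CPM, and stood at 4.81, 4.65 and 5.05 CPM in the LM1KO-labelled libraries. In LM9 it had 22 counts in replicate 1, 1 in replicate 2 and 0 in replicate 3, and the LM9KO-labelled libraries were at 4.15, 4.65 and 4.86 CPM. The ratio of summed counts was 9.30 in the LM1 line (95% counting interval 6.88 to 12.9) and 15.8 in the LM9 line (10.4 to 25.2), and without LM9 replicate 1 it was 229 on a single parental count (40.9 to 9050.1). The test passed in LM1 (log2 fold change 3.21, SE 0.52, adjusted p = 0.000139) and in LM9 (5.49, SE 0.76, adjusted p = 3.36e-05). The LM9 value without replicate 1 was 7.05 (SE 0.60, adjusted p = 5.96e-09).

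**Figure D2:**
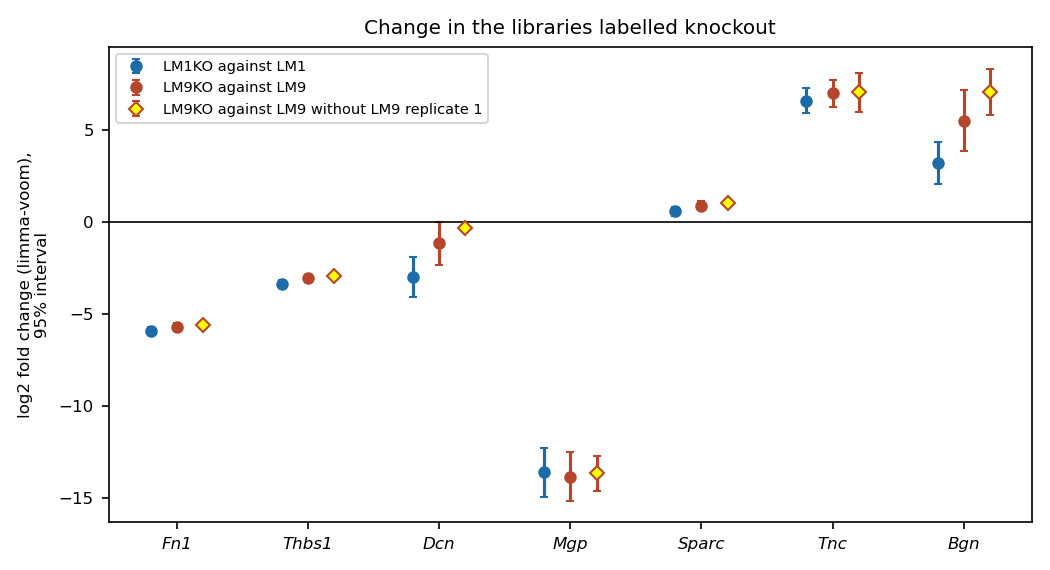
log2 fold changes of the 7 genes (limma-voom, points) with 95% intervals for LM1KO against LM1, LM9KO against LM9, and the latter without LM9 replicate 1; values above 0 are higher in the libraries labelled knockout. Dcn and Bgn have the widest gaps between the series, at -2.98, -1.18 and -0.32 for Dcn and 3.21, 5.49 and 7.05 for Bgn, while Fn1 lies between -5.91 and -5.63.

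The order of the genes by level changed between the parental libraries and those labelled knockout. Levels of different genes are compared per length, as CPM per kb of the exon union of each gene. In LM1, Fn1 led at 1002 ± 54.1 CPM per kb (SD, n = 3), followed by Mgp at 196 ± 4.14, Sparc at 185 ± 2.74, Thbs1 at 170 ± 0.540, Dcn at 15.5 ± 0.782, Bgn at 0.0865 ± 0.0251 and Tnc at 0.0131 ± 0.00914, with no overlap between neighbours in this order. In the LM1KO-labelled libraries, Sparc led at 274 ± 4.15 CPM per kb. Fn1 at 16.7 ± 0.223 and Thbs1 at 16.6 ± 0.372 overlapped, and Dcn at 1.97 ± 0.0918, Tnc at 1.28 ± 0.0294, Bgn at 0.793 ± 0.0326 and Mgp at 0.00707 ± 0.0122 followed without overlap. The LM9KO-labelled libraries had Sparc at 271 ± 6.08, Thbs1 at 16.9 ± 0.166 and Fn1 at 16.5 ± 0.487, again with the last 2 overlapping, then Dcn at 2.12 ± 0.0225, Tnc at 1.29 ± 0.0241 and Bgn at 0.746 ± 0.0599, with Mgp listed at 0. Fibronectin thus stood at 5.43 times the level of SPARC per kb in LM1, and SPARC at 16.4 times the level of fibronectin in LM1KO. In LM9, Fn1 led at 881 ± 144 CPM per kb, and Mgp at 159 ± 34.9, Sparc at 150 ± 31.7 and Thbs1 at 143 ± 22.9 overlapped as neighbours. Dcn at 6.58 ± 6.83, Bgn at 0.0428 ± 0.0684 and Tnc at 0.00800 ± 0.00254 followed, and the last pair overlapped. Without LM9 replicate 1, Mgp at 139 and Sparc at 132 no longer overlapped, and Sparc and Thbs1 still did. Dcn was then at 2.64 and Bgn at 0.00330 CPM per kb, below Tnc at 0.00766, with which it overlapped.

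**Figure D3:**
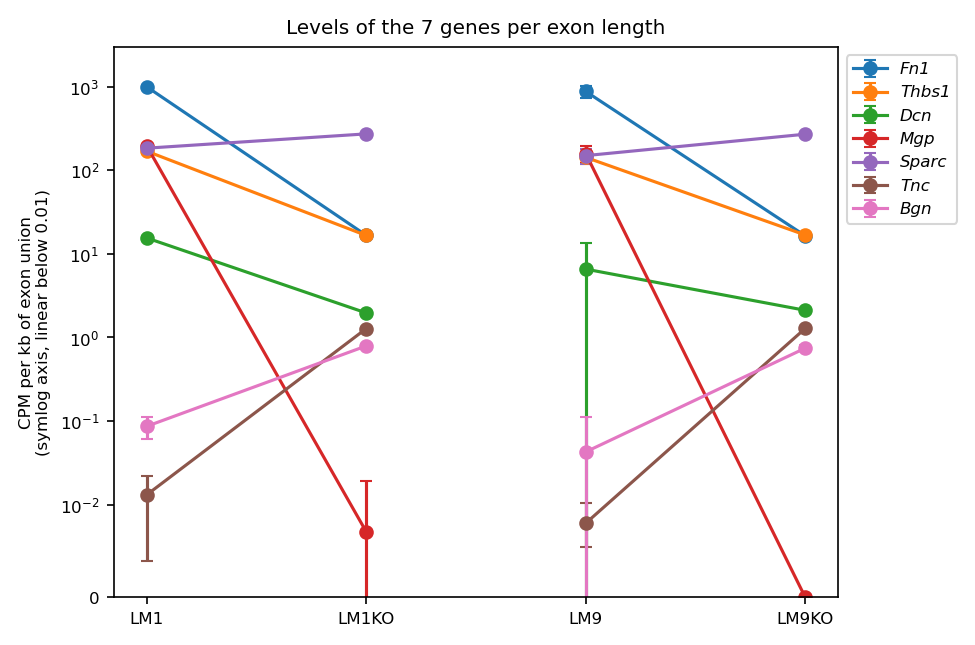
Mean CPM per kb of exon union of each gene in the 4 groups, with SD over 3 libraries, on an axis that is logarithmic above 0.01 and linear below it. The line of Sparc rises from 185 to 274 in the LM1 line while Fn1 drops from 1002 to 16.7, and Mgp ends at 0.00707 in LM1KO and at 0 in LM9KO.

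The parental lines were then set against each other. With all libraries, none of the 7 genes passed for LM1 against LM9 in limma-voom, where 0.00550% of genes did. Of the 7, all but Fn1 and Tnc were under an unadjusted p of 0.05, as were 8660 of all 18176 genes tested. DESeq2 called 1 of the 7, Dcn, among 5772 genes in all, and the edgeR quasi-likelihood test called 0 of the 7. Without LM9 replicate 1, 6 of the 7 were higher in LM1 and passed, against 65.7% of all genes (33.4% higher and 32.4% lower in LM1). Dcn was 5.88-fold higher in LM1 than in the other LM9 libraries (log2 2.56, SE 0.07, adjusted p = 1.64e-14), and Bgn had 46 counts in LM1 against 1, a ratio of 26.1 (95% counting interval 4.46 to 1053). The differences of the other 4 were smaller, at 0.50 on the log2 scale for Mgp, 0.48 for Sparc, 0.38 for Thbs1 and 0.29 for Fn1. Tnc had a difference of 0.44 with a 95% interval from -0.87 to 1.74 and did not pass. LM9 replicate 1 differed from the LM1 mean by at most 0.10 on the log2(CPM + 0.1) scale for Fn1, Thbs1, Dcn, Mgp and Sparc, and between 0.29 and 2.45 from the mean of the other LM9 libraries for those genes.

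**Figure D4:**
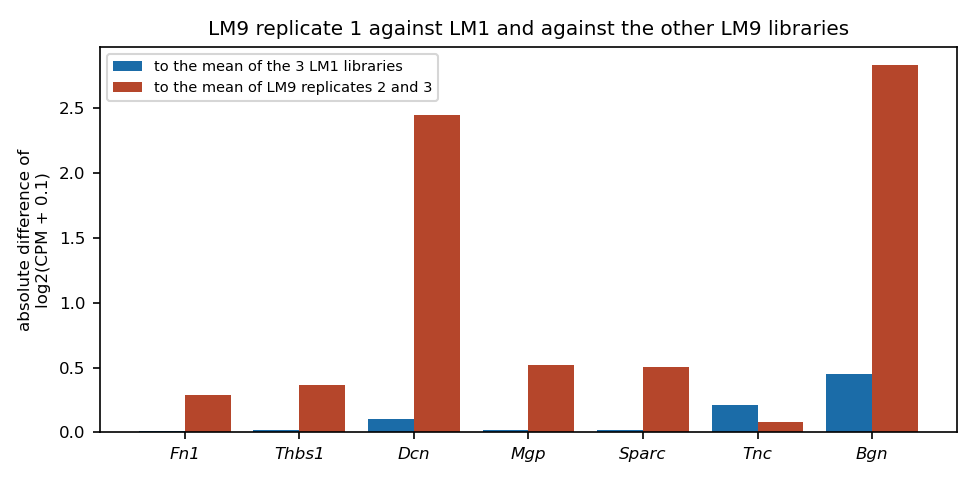
Absolute difference of log2(CPM + 0.1) between LM9 replicate 1 and the mean of the 3 LM1 libraries, or the mean of LM9 replicates 2 and 3, for each of the 7 genes; bars are single values without error. The distance to the other LM9 libraries exceeds that to LM1 for every gene but Tnc, and reaches 2.45 for Dcn and 2.83 for Bgn.

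The pools labelled knockout were set against each other in the same way. None of the 7 genes, and none of the 18176 tested, passed for LM1KO against LM9KO in limma-voom, in the edgeR quasi-likelihood test or in DESeq2, and 178 genes and none of the 7 were under an unadjusted p of 0.05. The 95% interval of the log2 difference, LM1KO minus LM9KO, ran from -0.19 to 0.24 for Fn1, from -0.22 to 0.19 for Thbs1, from -0.23 to 0.26 for Sparc and from -0.24 to 0.23 for Tnc. It was wider for Bgn (-0.59 to 0.77), Dcn (-1.34 to 1.13) and Mgp (-1.28 to 2.39). Without LM9 replicate 1, whose spread enters every interval of the shared model, the Dcn interval narrowed to -0.25 to 0.04.

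Whether the 2 lines changed by different amounts was tested as the LM1 fold change minus the LM9 fold change. With all libraries, none of the 7 genes and none of the 18176 passed in limma-voom, although 2 of the 7, Dcn and Bgn, and 4497 of all were under an unadjusted p of 0.05, and edgeR called 1 gene and DESeq2 70, none of them among the 7. When LM9 replicate 1 was left out, Dcn, Bgn, Sparc and Thbs1 passed, all with a negative difference, against 57.2% of all genes (27.6% positive and 29.6% negative). The difference on the log2 scale was -2.66 for Dcn (SE 0.10, adjusted p = 2.06e-12) and -0.40 for Thbs1 (SE 0.06, adjusted p = 1.72e-05), so both fell further in LM1. It was -3.83 for Bgn (SE 0.64, adjusted p = 7.24e-05) and -0.47 for Sparc (SE 0.04, adjusted p = 2.04e-08), so both rose less in LM1. In these 4 the LM1KO and LM9KO levels were close and the parental levels differed, as given above. Fn1 had a difference of -0.27 (95% interval -0.54 to -0.01, adjusted p = 0.0707), Mgp of 0.06 (-1.31 to 1.42) and Tnc of -0.45 (-1.76 to 0.87), and none of these passed.

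The opposite moves among the 7 were set beside markers of cell types. Of the 12 fibroblast marker symbols, 10 were in the tables, and all 10 rose in both lines, with and without LM9 replicate 1, beside 39.6% of all genes, or 40.7% without that library. Their summed level was 205 to 217 CPM in LM1 and 2120 to 2158 CPM in the LM1KO-labelled libraries, and 159 to 204 CPM in LM9 and 2065 to 2129 CPM in the LM9KO-labelled libraries. Pdgfra made up nearly all of the parental sums and had the smallest log2 fold change of the 10, from 201 to 282 CPM in the LM1 line and from 173 to 284 CPM in the LM9 line. In the libraries labelled knockout the sums came mostly from Col1a1, which rose from 6.10 to 958 CPM and from 3.25 (1.89 and 1.77 in LM9 replicates 2 and 3) to 899 CPM, and Col6a3, which rose from 0.528 to 591 CPM and from 0.309 (0.201 and 0.118) to 591 CPM. Col1a2, Lum, Prrx1, Twist2 and Dpt were at 3 counts or fewer in every parental library. In LM1KO and LM9KO, Prrx1 stood at 170 and 172 CPM and Dpt at 6.72 and 6.84 CPM. Col1a2 (0.760 and 0.662 CPM), Lum (0.312 and 0.328) and Twist2 (0.372 and 0.321) stayed under 1 CPM there. Sparc, Tnc and Bgn moved with the fibroblast markers, and Dcn, which fibroblasts also make, moved against them. The 7 luminal epithelial markers found fell in both lines, with and without that library, beside 33.5% of all genes lower in both, or 34.9% without it, from a sum of 790 to 853 CPM in LM1 to 1.36 to 1.40 CPM in LM1KO, and from 847 to 1491 CPM in LM9 to 1.09 to 1.26 CPM in LM9KO. Fn1, Thbs1 and Mgp moved with them in both lines, and Dcn did in LM1. Of 8 endothelial marker symbols, 4 were found. They summed to 0.425 to 0.552 CPM in LM1 and 356 to 360 CPM in LM1KO. The sums in LM9 and LM9KO were 0.337 to 1.53 and 352 to 360 CPM. Nearly all of the LM1KO and LM9KO sums came from Kdr, at 282 and 284 CPM, and Cdh5, at 73.3 and 69.5 CPM. Both were at 3 counts or fewer in all parental libraries. Esam rose to 1.55 and 1.72 CPM. Pecam1 passed in neither line, at 0.314 CPM in LM1 and 0.433 in LM1KO, and at 0.880 in LM9 and 0.332 in LM9KO, and without LM9 replicate 1 it was lower in LM9KO and passed (log2 fold change -1.89). Of 8 basal marker symbols, 4 were found. They summed to 16.8 to 19.7, 7.50 to 7.66, 0.806 to 18.2 and 6.84 to 7.62 CPM in LM1, LM1KO, LM9 and LM9KO. These sums hide opposite moves. Krt14 rose from 0.0584 to 6.79 CPM in the LM1 line and from 0.145 to 6.51 in the LM9 line, Krt17 rose and Cnn1 fell, all 3 averaging under 1 CPM in the parental groups. Trp63 fell from 17.1 to 0.302 CPM in the LM1 line but did not pass in LM9, where replicate 1 was at 17.9 CPM and the others at 0.0403 and 0.276 CPM. Of 8 leukocyte marker symbols, 2 were found, and they also went opposite ways in both lines. Cd68 fell from 459 to 101 CPM and from 523 to 98.7 CPM. Csf1r rose from 0 to 12.4 CPM and from 0.0112 (0 in LM9 replicates 2 and 3) to 12.3 CPM. The part of these markers in the results on the 7 genes was not tested.

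Relatives of the 7 genes also moved both ways. Of 17 matricellular relatives tested, 6 were higher and 7 lower in both lines, and 4 passed in 1 line only; over all genes tested, 39.6% were higher and 33.5% lower in both. With LM9 replicate 1 left out, the 17 split into 5 higher and 8 lower in both lines, 2 with opposite signs and 2 passing in 1 line, against 40.7% of all genes higher, 34.9% lower and 5.73% opposite. The median log2 fold change of the 17 was -0.86 in LM1 and -0.36 in LM9, and 0.13 in LM9 without replicate 1. Thbs2, the closest relative of Thbs1, rose where Thbs1 fell, from 3.21 ± 0.444 CPM in LM1 to 172 ± 2.42 in LM1KO and from 1.56 ± 1.08 in LM9 (0.846 and 1.02 in replicates 2 and 3) to 171 ± 2.74 in LM9KO. Tgfbi, a collagen-binding and integrin-binding protein induced by TGF-beta, rose from 1.77 to 113 CPM in the LM1 line and from 1.33 to 112 CPM in the LM9 line. Smoc2, a calcium-binding relative of SPARC, was listed at 0 in all 6 parental libraries and stood at 12.5 and 12.4 CPM in LM1KO and LM9KO. Among the relatives called lower in both lines, the largest falls by the mean of both lines were those of Tnr, Sparcl1 and Spp1. Postn, which did not pass in LM9, fell by 6.69 on the log2 scale in LM1, more than Sparcl1 and Spp1 there. Tnr, a tenascin like Tnc, went from 15.8 ± 1.24 CPM in LM1 to 0.0423 ± 0.0522 in LM1KO and from 9.35 ± 4.53 in LM9 (6.97 and 6.49 in replicates 2 and 3) to 0.0838 ± 0.0353 in LM9KO, against the rise of Tnc. Sparcl1, the closest relative of Sparc, fell from 3.32 to 0.0431 CPM and from 1.51 to 0.0757 CPM, against the rise of Sparc, and LM9 replicates 2 and 3 were at 1.17 and 0.827 CPM. Spp1, which encodes the integrin ligand osteopontin, fell from 7394 ± 230 to 129 ± 0.81 CPM in the LM1 line and from 9580 ± 1983 to 135 ± 1.48 CPM in the LM9 line.

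Of 13 symbols of small leucine-rich proteoglycans besides Dcn and Bgn, 5 were in the tables. In both lines 3 were higher and 2 lower, with and without LM9 replicate 1, beside the 39.6% and 33.5% of all genes given above. Ogn (osteoglycin) rose from 3.63 ± 0.719 to 9.15 ± 0.568 CPM in the LM1 line and from 0.984 ± 1.60 to 9.79 ± 0.660 CPM in the LM9 line, where LM9 replicate 1 was at 2.83 CPM and the other LM9 libraries at 0.0394 and 0.0806 CPM. Prelp fell from 23.4 ± 0.325 to 1.38 ± 0.0660 CPM and from 10.1 ± 9.55 to 1.71 ± 0.199 CPM, and in LM9 it had a pattern like that of Dcn, with 21.1 CPM in replicate 1 and 4.27 and 4.88 CPM in the others. Podnl1 fell from 9.12 to 3.21 CPM and from 11.2 to 3.17 CPM. Fibroblast-made lumican (Lum) and Ecm2 were the other 2 that rose, and both averaged under 1 CPM over the 12 libraries.

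Decorin and biglycan carry chains of chondroitin or dermatan sulphate. Of 14 genes for the enzymes that build them, 8 were higher and 2 lower in both lines, beside 39.6% and 33.5% of all genes, with a median log2 fold change of 0.50 in LM1 and 0.59 in LM9. The other 4 passed in LM1 alone, where Csgalnact1, Chsy1 and Chst14 were lower and B3gat3 higher. That made 9 higher and 5 lower in LM1, beside 43.1% and 38.1% of all genes there. Without LM9 replicate 1 the counts of 8 and 2 held, Chsy1 took opposite signs and 3 passed in LM1 or LM9 alone. The pair of xylosyltransferases that start the chain moved oppositely. Xylt1 rose from 0.0118 to 11.7 CPM in the LM1 line and from 0.0269 to 12.1 CPM in the LM9 line, and Xylt2 fell from 38.8 ± 4.18 to 12.2 ± 0.780 CPM and from 31.0 ± 5.95 to 11.8 ± 0.666 CPM. B3galt6, which adds a galactose of the linker, rose from 0.271 to 7.90 and from 0.142 (0 and 0.157 in LM9 replicates 2 and 3) to 7.29 CPM. Dse, the epimerase that turns chondroitin into dermatan sulphate, rose from 11.7 ± 0.881 to 65.7 ± 2.65 CPM and from 5.44 ± 4.83 to 66.3 ± 1.34 CPM, and LM9 replicates 2 and 3 were at 2.26 and 3.07 CPM. Csgalnact2, which extends the chondroitin chain, fell from 27.8 to 18.1 CPM (limma-voom adjusted p = 1.44e-05) and from 22.3 to 19.1 CPM (adjusted p = 0.0195).

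Of the 6 genes around the vitamin K-dependent modification that Mgp carries, 3 were higher, 2 lower and 1, the carboxylase Ggcx, passed in neither line, beside 39.6% of all genes higher and 33.5% lower in both. Ggcx passed in LM9 without replicate 1 (log2 fold change 0.25) and the other 5 kept their direction and call. Gas6, another Gla protein and a ligand of TAM receptors, rose from 0.358 ± 0.124 to 40.8 ± 1.38 CPM in the LM1 line and from 0.358 ± 0.275 to 41.2 ± 1.31 CPM in the LM9 line, where replicates 2 and 3 were at 0.201 and 0.197 CPM, while Mgp fell. The vitamin K reductases split, with Vkorc1 falling from 22.6 to 9.32 CPM and from 27.5 to 8.80 CPM and its paralogue Vkorc1l1 rising from 30.2 to 63.3 CPM and from 20.8 (16.8 and 16.1 in LM9 replicates 2 and 3) to 63.9 CPM. Pros1 (protein S) fell from 22.3 to 13.6 CPM and from 19.4 to 13.4 CPM.

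Among 16 receptors and assembly factors tested, 6 were higher and 8 lower in both lines, and 6 and 9 without LM9 replicate 1, beside 39.6% and 33.5% of all genes, or 40.7% and 34.9% without that library. Itgb1, the partner chain of the main fibronectin receptor, rose from 417 ± 14.7 to 2452 ± 58.4 CPM in the LM1 line and from 442 ± 24.0 to 2522 ± 28.7 CPM in the LM9 line, while Fn1 fell. Itga5, which pairs with it, was also higher in both lines. Itga9, a chain of a tenascin C receptor, rose from 0.0695 to 4.40 CPM and from 0.0356 (0 and 0.0394 in LM9 replicates 2 and 3) to 4.35 CPM, as Tnc did, and Itgb6 rose from 0.262 to 7.67 and from 0.696 to 7.41 CPM. Itgb3 fell from 88.8 ± 3.26 to 3.18 ± 0.285 CPM and from 93.0 ± 10.1 to 3.02 ± 0.231 CPM. Itga8, whose product binds fibronectin among other ligands, fell from 28.4 to 2.23 and from 45.4 to 2.15 CPM, and the heparan sulphate proteoglycan Sdc4, a fibronectin co-receptor, fell from 1264 ± 5.57 to 78.0 ± 0.619 CPM and from 1457 ± 174 to 76.9 ± 2.67 CPM.

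Other matrix glycoproteins counted 7 higher and 6 lower in both lines among 19 tested, and without LM9 replicate 1 they counted 8 higher, 6 lower and 3 with opposite signs. Over all genes the shares were 39.6% and 33.5%, and without that library 40.7%, 34.9% and 5.73%. Of the latent TGF-beta binding proteins, Ltbp2, Ltbp3 and Ltbp4 fell, with Ltbp2 at 1007 ± 50.2 CPM in LM1 against 2.05 ± 0.0396 in LM1KO and 879 ± 129 in LM9 against 2.26 ± 0.353 in LM9KO. Ltbp4 went from 244 to 0.404 CPM and from 256 to 0.442 CPM, and Ltbp3 from 691 to 178 CPM and from 947 to 168 CPM. Ltbp1 passed in neither line, and without LM9 replicate 1 it passed in LM9 at a log2 fold change of 0.13. Emilin1, Fbln7 and Fbln5, from families found at elastic fibres and basement membranes, rose. Emilin1 went from 0.153 to 182 CPM and from 0.0825 (0 and 0.0787 in LM9 replicates 2 and 3) to 175 CPM, Fbln7 from 0.478 to 69.7 CPM and from 0.168 (0.121 and 0.0787) to 68.8 CPM, and Fbln5 from 0 in all parental libraries to 47.2 and 46.1 CPM. Elastin itself (Eln) was among the 6 that were lower.

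**Figure D5:**
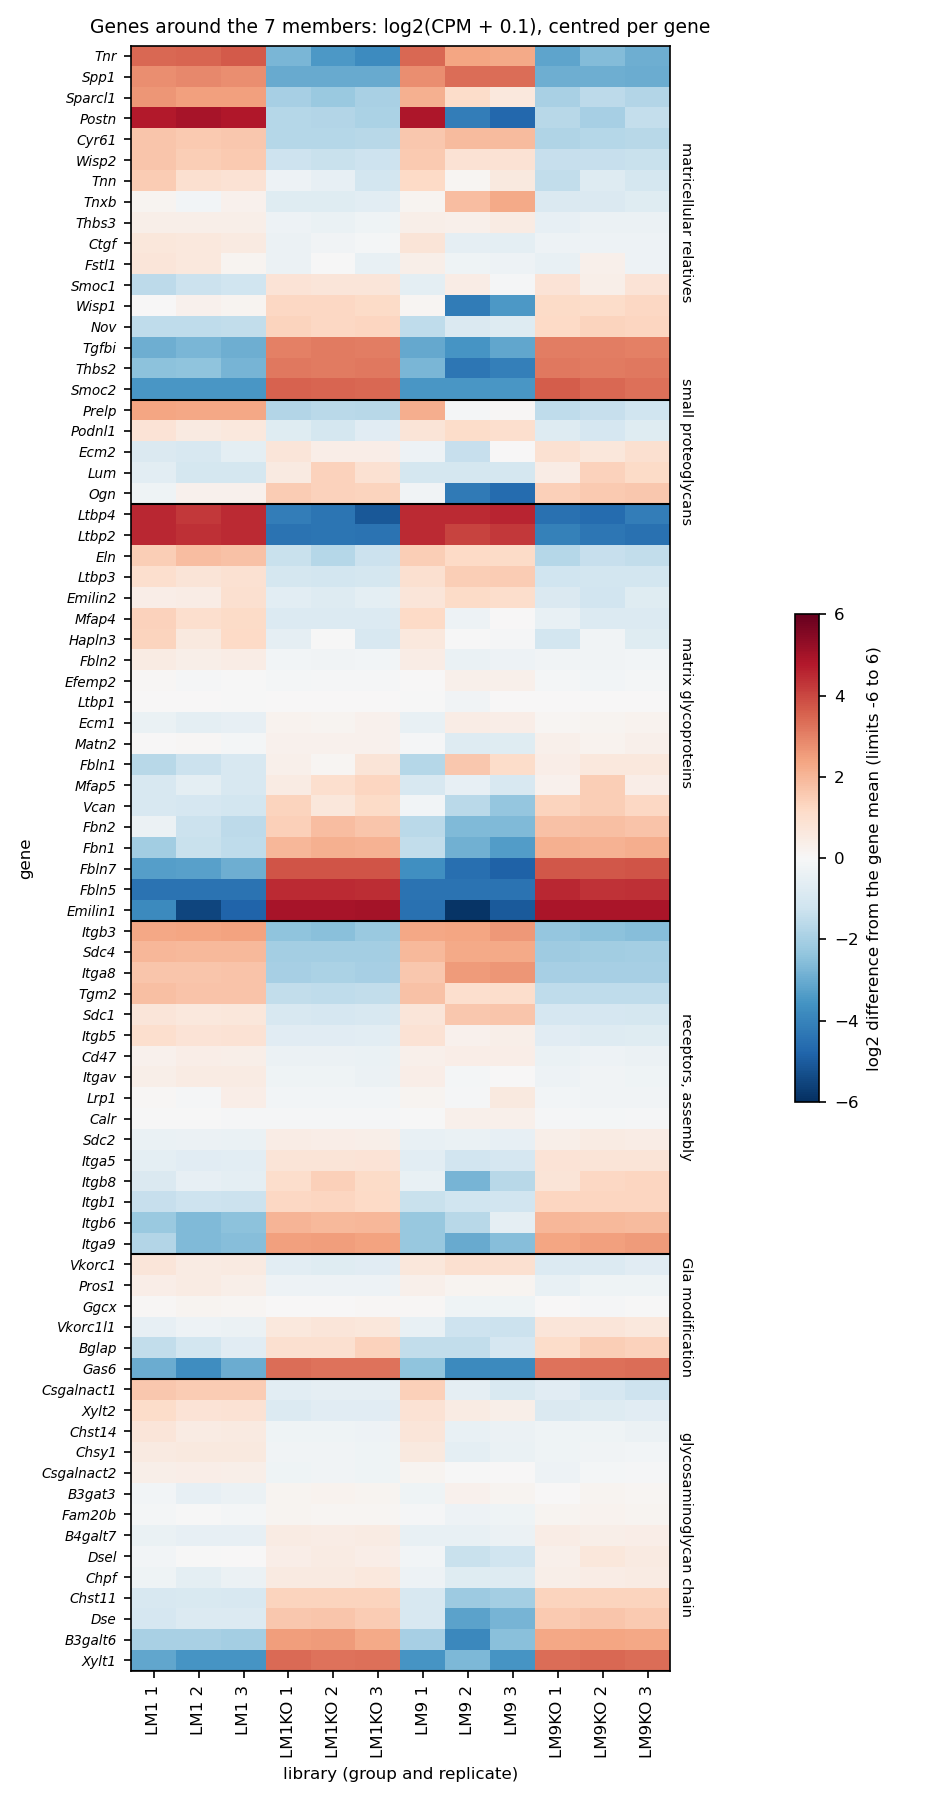
log2(CPM + 0.1) of 78 genes of the 6 lists around the 7 genes, centred on the mean of each gene over the 12 libraries (columns) and ordered by level in the libraries labelled knockout within each list; red is above and blue below the mean, with colours limited at -6 and 6. The columns labelled knockout look alike in both lines, and the column of LM9 replicate 1 follows the LM1 columns, as in Postn, which stood at 197 CPM there and at 0.282 and 0.157 CPM in the other LM9 libraries.

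Likeness between genes was measured as the root mean square difference of log2(CPM + 0.1) after centring each gene on its mean over the 12 libraries, among 14633 genes with a mean of at least 1 CPM. The libraries fall into a few tight groups, so a low value says mainly that the group levels run in parallel. Sparc had the closest neighbours, Ints3 at 0.0339 and Zfp664 at 0.0358. Thbs1 was followed by Zfp217 and Cd274, both at 0.0754. Fn1 lay closest to Jak3 (0.160) and Pik3ip1 (0.186), and Mgp to Lcn2 (0.173) and Cxadr (0.230). Dcn lay closest to Zfp704 (0.141) and Igsf3 (0.170), which share its low level in LM9 replicates 2 and 3. Bgn had Zfp703 (0.204) and the processed pseudogene Gm15583 (0.216), whose reads may be shared with its parent gene, and Tnc had Dnah8 (0.233) and Rgl3 (0.239). Among the 7 themselves the nearest pair was Dcn and Thbs1 at 0.924, followed by Fn1 and Thbs1 at 1.30 and by Tnc and Bgn at 1.35. Each of the 7 had closer genes outside the set. That search covered 14633 genes against the few of the set, so a closer gene outside is no result about the set.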

How the data were processed

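RNA of tumourspheres was sequenced as single-end reads from 12 stranded poly-A libraries. Per the labels and the methods of the study, the authors aligned reads with STAR to mm10 and counted 5′ ends over the exon union of each gene with QuasR. The deposited values are raw whole-number counts, 1 table per library. Tool versions, the annotation release, the strand setting and the treatment of multiply aligned reads are not given in the sources used here. Every gene in the tables reached 8 counts in 3 or more libraries. Genes that are not listed were not analysed here, and no level of 0 is claimed for them.

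Groups were taken from sample titles. Names, 1-based coordinates and exon lengths came from GENCODE M21 (GRCm38, the assembly of mm10), which matched 18268 of 18278 identifiers. Promoters came from RefSeq. Counts were filtered with filterByExpr (minimum count 10, minimum total 15), scaled by TMM and fitted with limma-voom, 1 mean per group over 12 libraries, with two-sided tests and Benjamini-Hochberg adjustment over all genes at 0.05. Software was limma 3.58.1, DESeq2 1.42.0 and edgeR 4.0.16 under R 4.3.3. Exact counting intervals are at 95%. Library totals and the floor of 3 counts are given with the results. Simulated counts were drawn with 1 mean per gene for all groups, a dispersion of 0.01 and no library set apart from its group. In them 200 genes were shifted by 1 on the log2 scale in LM1KO alone. The fit recovered 193 for LM1KO against LM1, with 13 false calls among 17582 genes. For the difference between lines it recovered 175, with 4 false calls. The real libraries differed in far more genes and include LM9 replicate 1, so these counts do not give the power there.

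The 7 genes and the lists around them were chosen with earlier results of these data known. From each list, up to 3 largest rises and 3 largest falls were named, by the mean of both line comparisons, among those called with equal sign in LM1 and LM9 and averaging 1 CPM or more, plus the 2 genes most like each of the 7. Genes passing with opposite signs were to be named too, and with all libraries the lists held none. Lum, Ecm2, Itga5, Eln, Ltbp1, Ggcx, Csgalnact1, Chsy1, Chst14, B3gat3 and Postn were named after their values were seen. Alternatives were DESeq2, the quasi-likelihood test of edgeR, total counts or median-ratio factors in place of TMM, no filter or a mean of 5 CPM, sample quality weights, a replicate block, a fit of only the groups compared, a call that also asks for an absolute log2 value over 1, and leaving out each library.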

Additional observations from a re-analysis of the deposited data

Results flagged for a closer look

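For 4 of the 7 genes the change between parental and knockout-labelled libraries differed between the lines by a test of the difference itself, once LM9 replicate 1 was left out, as it did for 57.2% of all genes tested, so the count of 4 is no result about these genes. The values are the LM1 log2 fold change minus the LM9 log2 fold change (limma-voom). They were -2.66 for Dcn, -3.83 for Bgn, -0.47 for Sparc and -0.40 for Thbs1. With LM9 replicate 1 included, none of the 4 passed, at -1.80 for Dcn, -2.29 for Bgn, -0.30 for Sparc and -0.28 for Thbs1. That library stood at the LM1 level for Dcn, Sparc and Thbs1, and at 0.742 CPM against 0.368 to 0.674 CPM in LM1 for Bgn. Its part in these differences beyond the values with and without it was not tested.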

How the results depend on the processing

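The directions of the 7 genes in LM1KO against LM1 and LM9KO against LM9 held under every alternative in which they could be fitted, and every call at an adjusted p under 0.05 held where the gene was tested, while Dcn in LM9, which had not passed, passed under 7 of them. Asking also for an absolute log2 fold change above 1 left 6 of the 7 in LM1 and 5 in LM9, because Sparc did not reach it. Of all 18176 genes tested, 9996 passed by this rule in LM1 and 10443 in LM9. Bgn was not tested with a mean of at least 5 CPM, because it fell below it. The log2 fold change of Dcn in LM9 missed the threshold at -1.18 but passed in the edgeR quasi-likelihood test (-1.64), DESeq2 (-1.63), with sample quality weights (-0.35) and without LM9 replicate 1, 2 or 3 (-0.32, -1.57 and -1.60). For the difference between lines, 0 genes passed with all libraries, 1 in edgeR, 70 in DESeq2, 1 with total counts, 10558 with sample quality weights and 0 to 10444 when 1 library was left out. Of the 7 genes, 5 passed there with sample quality weights and 0 to 4 with 1 library left out. For LM1 against LM9, 1 gene passed with all libraries, 5772 in DESeq2, 5226 with total counts, 4670 with a mean of at least 5 CPM, 11595 with sample quality weights, 0 with only the groups compared and 0 to 11995 with 1 library left out. Of the 7 genes, 1, 4, 3 and 6 passed under the first 4 of these alternatives and 0 to 6 with 1 library left out. The highest leave-one-out values were those without LM9 replicate 1. For LM1KO against LM9KO, 6 genes passed with only the groups compared. Some small differences that did not pass changed sign. Over the libraries left out, the difference between lines ran from -0.857 to 0.0373 for Tnc (positive without LM1 replicate 1) and from -0.277 to 0.488 for Mgp (negative without LM1KO replicate 1). LM1 against LM9 ran from -0.0455 to 0.848 for Tnc (negative without LM1 replicate 1). LM1KO against LM9KO ran from -0.0227 to 0.0098 for Tnc, which was also positive at 0.0015 without LM9KO replicate 2, and from -0.0061 to 0.0375 for Fn1 (negative without LM9KO replicate 2). The causes were not tested.

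Same-numbered libraries of different groups did not deviate together, with correlations of their deviations from the group means between -0.160 and 0.0903, so the replicate number was not taken to pair them. A replicate block on it left 14597 genes past the threshold for the LM1 line, 14840 for the LM9 line and 0 for LM1 against LM9, and Dcn passed in LM9 (-1.27, adjusted p = 0.0356). Depth limits Tnc and Bgn in the parental libraries and Mgp in those labelled knockout.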

Other observations

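Some relatives of the 7 genes took opposite signs in the lines once LM9 replicate 1 was left out, as did 5.73% of all genes, against 0.0385% with all libraries. They were named after their values were seen. Postn (periostin, a matricellular protein of fibroblasts) was at 185, 207 and 189 CPM in LM1, and its log2 fold change was -6.69 in LM1 and 3.13 in LM9 without replicate 1, on 0.282 and 0.157 CPM in the 2 LM9 libraries that remained. Ctgf went from -0.86 in LM1 to 0.25 in LM9, Fbln2 from -0.60 to 0.14, Chsy1 from -0.79 to 0.29, Ecm1 from 0.71 to -0.27 and Fbln1 from 2.23 to -0.86. In each of these the LM1KO and LM9KO means were closer to each other than the LM1 mean was to LM9 replicates 2 and 3. Wisp1 was at 22.9 to 27.0 CPM in LM1 and at 24.8 CPM in LM9 replicate 1, and at 1.17 and 2.01 CPM in the other LM9 libraries.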
